A study of Mus musculus with 3 samples.

Results

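The nuclear genes of respiratory complexes II to V and of cytochrome c were compared in 3 pooled RNA-seq libraries of mouse gastrocnemius and plantaris muscle. Members were the rows whose symbol is Sdha, Sdhb, Sdhc, Sdhd, Cyc1 or Cycs, or begins with Uqcr, Cox4, Cox5, Cox6, Cox7, Cox8 or Atp5, with pseudogene names ending in -ps left out and a mean of at least 1 CPM (a count scaled to a library of 1000000) over the 3 libraries. Of 42258 rows, 50 met the name rule and 47 also met the minimum, among 12966 rows compared in all. Complex II had 4 members, complex III 9, complex IV 16 and complex V 17, and Cycs, cytochrome c itself, was counted apart. Just inside the limit stood Cox4i2, with a mean of 2.06 CPM. Just outside stood Cox6b2, with 0.500 CPM in aged EPA, 0.191 CPM in aged control and 0.266 CPM in young muscle, and Cox8c and Cox7b2 were listed at 0 throughout.

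The aged EPA library was pooled from 6 C57BL/6J males of 87 weeks, whose diet held 1 wt% EPA, the omega-3 fatty acid eicosapentaenoic acid, for 12 weeks from the age of 75 weeks. The aged control library was pooled from 6 C57BL/6J males of the same age on an EPA-deprived diet for the same weeks. The young library was pooled from 3 males of 24 weeks, whose strain is labelled C57BL/7J and whose diet the labels do not give. All animals were male and untreated otherwise as far as the labels say, and strain label, diet and age cannot be told apart in any comparison with the young library. Each group is 1 library, so no test is possible, and every difference below is a size in these libraries without an error between mice. Recovered depths were 55969822, 57622886 and 57386394 counts for aged EPA, aged control and young, and the members took 1.29%, 1.23% and 1.37% of them.

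Complex II oxidises succinate and passes the electrons to ubiquinone. Complex III hands them on to cytochrome c, complex IV uses them to reduce oxygen, and complexes III and IV pump protons out of the mitochondrial matrix. Complex V, the ATP synthase, lets the protons flow back and makes ATP. Complex II is wholly nuclear-encoded, whereas complexes III, IV and V also contain subunits made from mitochondrial DNA, and in muscle several complex IV subunits exist as a ubiquitous and a heart and skeletal muscle isoform.

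The factors NRF1, ESRRA, GABP (an ETS factor) and YY1 are known regulators of such genes, so the members' promoters were searched for their motifs. RefSeq promoter windows of 300 bases, 250 before and 50 after each start, matched 35 members by symbol, in 38 windows (build GRCm38.p6). The NRF1 letters GCGCANGC, on either strand, stood in 39.5% of the members' windows and in 9.95% of all 32851 windows. The ETS letters CCGGAAG stood in 34.2% of the members' windows and 8.86% of all, the ESRRA letters AAGGTCA in 13.2% and 4.72%, and the YY1 letters AANATGGC in 13.2% and 6.05%. A match of letters is a description and not a binding site.

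The upstream stretches of 5 genes show how this shared feature is spread over members that did and did not differ between the libraries. Each line gives the 150 bases before the RefSeq start, with matches to the motifs in capitals. The stretches are Atp5k at chr5:108434400-108434549, Cycs at chr6:50566570-50566719, Sdha at chr13:74350241-74350390, Cox6a1 at chr5:115348959-115349108, Cox8b at chr7:140900447-140900596, all on the minus strand. Atp5k and Cycs were lower in both aged libraries than in young, and Sdha was not. Cox6a1 encodes a ubiquitous and Cox8b a muscle isoform of complex IV subunits.

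Atp5k: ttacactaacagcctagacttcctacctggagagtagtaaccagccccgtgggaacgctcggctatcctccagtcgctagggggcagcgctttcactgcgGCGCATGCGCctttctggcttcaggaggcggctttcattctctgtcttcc
Cycs: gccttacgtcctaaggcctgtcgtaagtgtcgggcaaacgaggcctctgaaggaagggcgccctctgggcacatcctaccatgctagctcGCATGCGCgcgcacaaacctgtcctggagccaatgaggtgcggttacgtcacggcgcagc
Sdha: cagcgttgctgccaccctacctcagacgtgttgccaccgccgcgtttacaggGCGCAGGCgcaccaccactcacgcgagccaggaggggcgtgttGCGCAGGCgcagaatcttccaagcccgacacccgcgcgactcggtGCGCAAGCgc
Cox6a1: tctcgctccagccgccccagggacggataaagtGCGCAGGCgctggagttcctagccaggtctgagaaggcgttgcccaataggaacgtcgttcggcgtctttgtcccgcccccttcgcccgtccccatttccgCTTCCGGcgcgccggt
Cox8b: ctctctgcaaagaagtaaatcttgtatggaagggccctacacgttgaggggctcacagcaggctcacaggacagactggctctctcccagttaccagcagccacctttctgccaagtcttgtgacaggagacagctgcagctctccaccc

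In these stretches Atp5k carries 2 overlapping NRF1 matches, Cycs carries 1, Sdha carries 3, Cox6a1 carries an NRF1 and an ETS match, and Cox8b has none. The medians that follow use the whole windows of 300 bases. There Atp5k also has an ESRRA and an ETS match, and Cox6a1 has 3 NRF1 matches. The 15 members with an NRF1 match had a median log2 change of -0.15 in aged control against young, and the 20 with a window but no match had -0.31. Of complex IV, which had the lowest median of the complexes at -0.33, Cox6a1 alone had an NRF1 match. The motif, the complex and transcript length can therefore not be told apart in this split. For the YY1 letters the medians were -0.11 with a match in 5 members and -0.25 without. For the ESRRA letters they were -0.28 with a match in 5 members and -0.23 without, and for the ETS letters -0.25 and -0.24. Single members do not follow these medians, since Atp5k, with an NRF1 match, had a log2 change of -0.52.

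Between aged control and young muscle, the members were slightly lower in aged control almost throughout. Of 47 members 43 were lower by any amount, against 52.4% of all compared genes, and the median log2 change of CPM + 1 was -0.25, against -0.01 over all compared genes. At least 20% lower on the scale of CPM + 1 were 13 of 47 members, against 10.4% of all compared genes, and none was at least 25% higher, the same fold in the other direction, against 9.13%. Cox4i1 alone passed 1.5-fold. The summed level of the 47 genes was 12437 CPM in aged control and 13940 CPM in young, a difference of -10.8%. In pooled whole muscle, fewer cells of a type and less RNA per cell cannot be told apart. The 6 markers of slow fibres, which are rich in mitochondria, went the other way, with 6 of 6 higher and a sum of 755 CPM in aged control and 427 CPM in young.

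The size of the difference went by complex. Complex IV was lower in aged control in 16 of 16 members, 9 of them by at least 20%, with a median log2 change of -0.33. Complex V was lower in 16 of 17 members with a median of -0.24, and complex III in 7 of 9 with a median of -0.15. Complex II had the smallest difference, with 3 of 4 members lower and a median of -0.04, and on recovered counts Sdhd lay at 0.003 rather than below 0. The summed CPM of complex IV was 3312 in aged EPA, 3065 in aged control and 3860 in young, while that of complex II was 1266, 1293 and 1321 in the same order.

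**Figure D1:**
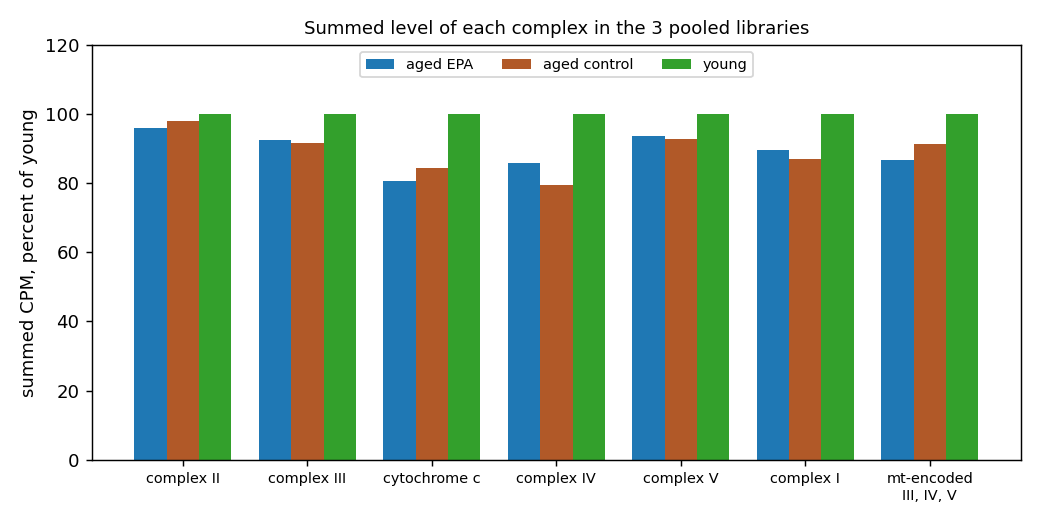
Summed CPM of the members of each complex, as percent of the young library, in the aged EPA, aged control and young libraries, with 36 complex I subunits and 6 mitochondrially encoded subunits beside them. Each bar is 1 pooled library without an error between mice. Complex IV in aged control differed from young by -20.6%, the largest gap of aged control to young among the 7 groups drawn, and complex II in aged control differed from young by -2.098%.

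Succinate dehydrogenase, complex II, had the smallest median difference between aged control and young, but not in the comparisons with aged EPA, where its medians were -0.05 against aged control and -0.12 against young. Sdha, the flavoprotein that oxidises succinate, had 577 CPM in aged EPA, 568 CPM in aged control and 550.2 CPM in young, the only member of the complex that was lowest in young. Sdhb, the iron-sulfur subunit, had 336, 343 and 377 CPM in aged EPA, aged control and young. Its log2 count ratio of aged control to young was -0.13 (95% counting interval -0.16 to -0.10, exact Clopper-Pearson). This interval, like all others here, covers counting error only. Of the membrane anchors, Sdhc had 234 CPM in aged EPA, 258 CPM in aged control and 268 CPM in young, and Sdhd had 119, 124 and 126 CPM. Both had their lowest value in aged EPA. The direction of the summed complex II between the aged libraries depended on the scaling, with -2.11% on deposited CPM and a log2 count ratio of 0.03 (0.02 to 0.05) when each library's own total was used.

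In complex III the core subunits and the Rieske protein were nearly level across the libraries, and most small subunits were not. Transcripts of this complex ran from 434 bases for Uqcr10 to 1896 bases for Uqcrc2, and length went with these differences, as given below. The core subunits Uqcrc1 (299, 313 and 309.8 CPM in aged EPA, aged control and young) and Uqcrc2 (369, 378 and 369 CPM) and the Rieske iron-sulfur protein Uqcrfs1 (294, 305 and 309 CPM) were within 1.05-fold between any 2 libraries. Cyc1, cytochrome c1, had 321 CPM in aged EPA, 318 CPM in aged control and 349 CPM in young. The small accessory subunits were lower in aged control than in young in 5 of 5 genes. Uqcrq had 199 CPM in aged EPA and 196 CPM in aged control, both below 251 CPM in young, a log2 count ratio of aged control to young of -0.33 (-0.37 to -0.30). Uqcr10 had 191, 178 and 225 CPM in the same order. Uqcrb, another small subunit, had 196 CPM in aged EPA, 194.5 CPM in aged control and 235 CPM in young. The hinge protein gene Uqcrh, whose product helps dock cytochrome c, had 77.5, 72.7 and 82.4 CPM. Uqcr11 was the exception to the shared order, with its highest value in aged EPA at 114 CPM, against 88.8 CPM in aged control and 98.4 CPM in young.

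Cycs, the mobile carrier between complexes III and IV, had 205 CPM in aged EPA, 215 CPM in aged control and 255 CPM in young. Both aged libraries lay below young, with a log2 count ratio of -0.28 (-0.31 to -0.24) for aged EPA and -0.22 (-0.26 to -0.19) for aged control.

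Complex IV held the member with the largest difference. Cox4i1, the ubiquitous isoform of the largest nuclear-encoded subunit, had 349.6 CPM in aged EPA, 229.8 CPM in aged control and 348 CPM in young. Aged control alone stood apart, with a log2 count ratio to young of -0.59 (-0.62 to -0.56), while aged EPA was close to young, 0.359% higher on deposited CPM and with a log2 count ratio of 0.08 (0.05 to 0.11). Cox5b, the zinc-binding subunit, had 208 CPM in aged EPA, 183 CPM in aged control and 253 CPM in young, a log2 count ratio of aged control to young of -0.50 (-0.54 to -0.47). Here aged EPA lay between the other libraries. Cox8b, the muscle isoform of subunit VIII, had 255, 204 and 274 CPM in aged EPA, aged control and young, and its ubiquitous counterpart Cox8a had 36.6, 34.5 and 46.0 CPM.

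Most other complex IV subunits were lower in aged control by a similar proportion. Cox6b1, which faces the intermembrane space, had 243 CPM in aged EPA, 219 CPM in aged control and 280.2 CPM in young. Cox7b had 209.9 CPM in aged EPA, 206 CPM in aged control and 261 CPM in young, and Cox7c had 262, 241 and 305 CPM. These are small membrane-spanning subunits, and so is the product of Cox6c. Cox6c had 123 CPM in aged EPA, 135 CPM in aged control and 159 CPM in young, with the lowest value in aged EPA. Cox5a, on the matrix side of the complex, differed less, with 317, 321 and 359 CPM. Cox7a2l, a homologue of subunit VIIa, had 91.7, 93.9 and 94.9 CPM, with nearly the same value in all 3 libraries.

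The muscle and the ubiquitous isoforms of complex IV were lower together in aged control than in young. On CPM per kilobase of transcript, Cox6a2, the muscle isoform of subunit VIa, made up 96.4% of the sum with Cox6a1 in aged EPA, 96.5% in aged control and 96.4% in young. Cox7a1, the muscle isoform of subunit VIIa, made up 66.7%, 66.4% and 66.1% of the sum with Cox7a2 in the same libraries. Cox8b made up 91.4%, 90.04% and 90.1% of the sum with Cox8a, and its ratio to Cox8a was 10.7, 9.04 and 9.09, so that of these 3 pairs it was the one whose ratio stood apart in aged EPA. The levels themselves were 982 CPM in aged EPA, 967 CPM in aged control and 1191 CPM in young for Cox6a2, and 30.8, 29.9 and 37.8 CPM for Cox6a1. They were 104.7, 104 and 129.8 CPM for Cox7a1 and 87.9, 88.4 and 111.5 CPM for Cox7a2. Each pair had both aged libraries below young. Cox4i2, the isoform known from lung and induced by hypoxia, had 2.11 CPM in aged EPA, 2.02 CPM in aged control and 2.06 CPM in young. Its log2 count ratio of aged control to young was -0.07, with a counting interval from -0.45 to 0.31 that does not reach the -0.59 of Cox4i1.

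**Figure D2:**
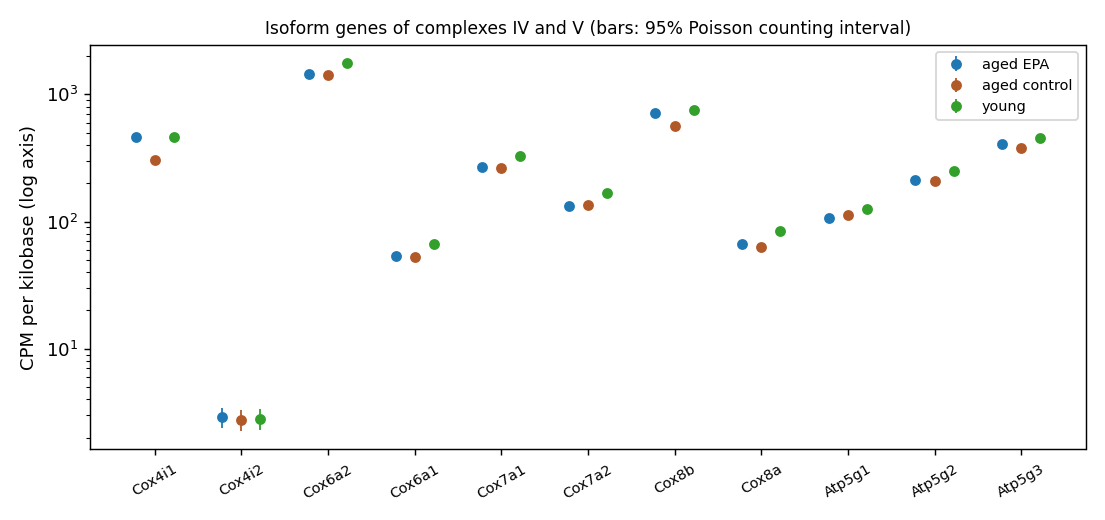
CPM per kilobase of principal transcript (log axis) of isoform genes in the aged EPA, aged control and young libraries, where bars are 95% Poisson counting intervals, smaller than the points for most genes. Cox6a2, Cox7a1 and Cox8b lie above their ubiquitous counterparts in every library, and the ratio of Cox8b to Cox8a is 10.7 in aged EPA, 9.04 in aged control and 9.09 in young.

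The catalytic head of complex V was level across the libraries. Atp5b, the catalytic beta subunit, had 1823 CPM in aged EPA, 1878 CPM in aged control and 1827 CPM in young. Atp5a1, the alpha subunit, had 727, 707 and 726 CPM in the same order. Atp5c1, the gamma subunit of the rotating stalk, was lowest in aged EPA at 498 CPM, against 558 CPM in aged control and 596 CPM in young. Atp5d, the delta subunit of the same stalk, was highest in aged EPA at 388 CPM, against 255 CPM in aged control and 313 CPM in young. Its partner Atp5e, the epsilon subunit, had 151, 142 and 174 CPM, so the 3 stalk genes each had another order of the aged libraries relative to young.

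Small membrane subunits, several of which help to hold ATP synthase dimers together, included the 3 complex V genes with the largest log2 changes of CPM + 1 in aged control against young. Atp5k, subunit e, had 43.2 CPM in aged EPA and 44.0 CPM in aged control, against 63.5 CPM in young, a log2 count ratio of aged control to young of -0.51 (-0.58 to -0.43). Atp5md, known as DAPIT, had 119.8, 123 and 162 CPM in aged EPA, aged control and young. Atp5mpl, which encodes the 6.8 kDa proteolipid, had 90.4, 102 and 126 CPM. For these 3 genes both aged libraries were below young and aged EPA was the lowest. Atp5l, subunit g, had 180.2 CPM in aged EPA, 176 CPM in aged control and 209 CPM in young, and Atp5j2, subunit f, had 221, 227 and 246 CPM, which are smaller differences. On recovered counts Atp5e and Atp5g3, at -0.33 and -0.32, lay further below young in aged control than Atp5mpl at -0.28.

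The c ring, which turns as protons pass, is made from 3 genes that encode the same mature protein. Atp5g1 had 286 CPM in aged EPA, 303 CPM in aged control and 334 CPM in young. Atp5g2 had 125, 122 and 145 CPM, and Atp5g3 had 291, 271 and 328 CPM. The young library was the highest for each of the 3 genes. The peripheral stalk genes Atp5pb, Atp5h, Atp5j and Atp5o were lower in aged control than in young, with log2 changes between -0.24 for Atp5o and -0.11 for Atp5pb. The gene of the ATPase inhibitor, Atpif1, which the name rule does not take in, had 13.3 CPM in aged EPA, 13.3 CPM in aged control and 15.3 CPM in young.

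**Figure D3:**
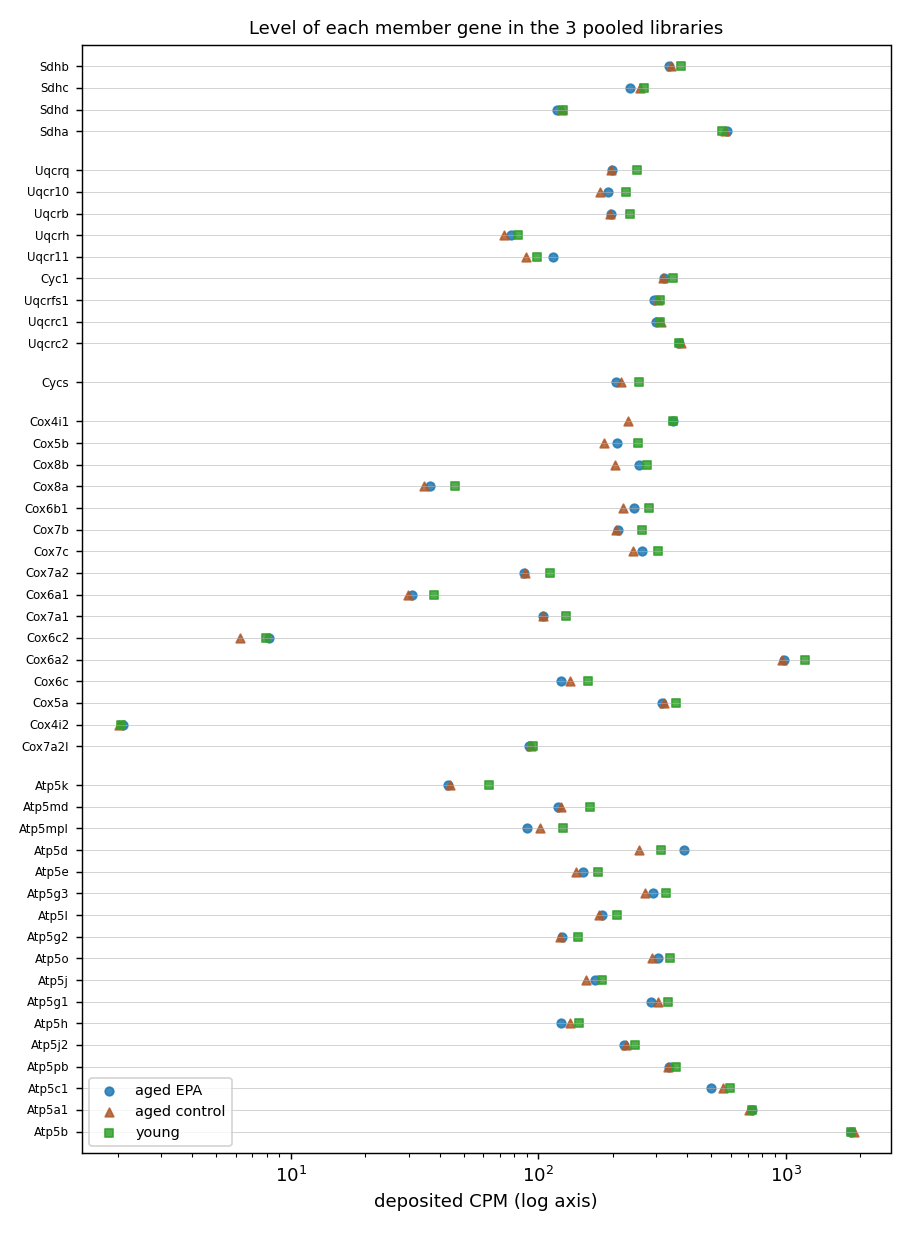
Deposited CPM (log axis) of the 47 members in the aged EPA, aged control and young libraries, grouped from the top as complex II, complex III, cytochrome c, complex IV and complex V and ordered within a group by the change of aged control against young. Each point is 1 pooled library, and the eye should run along a row: young is the highest of the 3 in 37 rows, and aged control is the lowest in 27. These orders were counted for the members only, not for all compared genes.

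Aged EPA was then set against aged control, with 1 pooled library of old muscle for each diet, so a difference cannot be assigned to the diet. Here the members as a whole were close together. The median log2 change of CPM + 1 was 0.02, against -0.03 over all compared genes, with 28 members higher and 19 lower by any amount, where 55.8% of all compared genes were lower. No member was at least 20% lower, against 7.38% of all compared genes, and 4 of 47 were at least 25% higher, against 5.38%. These 4 were Atp5d, Cox4i1, Uqcr11 and Cox6c2.

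Cox4i1 and Atp5d stood apart from the rest. The log2 count ratio of aged EPA to aged control was 0.68 (0.64 to 0.71) for Cox4i1 and 0.61 (0.58 to 0.64) for Atp5d, and it was 0.37 (0.32 to 0.43) for Uqcr11. The aged EPA values of Atp5d and Uqcr11 lay above those of young as well. Pseudogene copies of Uqcr11 held 12.7% of the summed CPM in aged EPA, 13.5% in aged control and 13.9% in young. Cox6c2, with 8.14 CPM in aged EPA, 6.25 CPM in aged control and 7.94 CPM in young, is 97% identical to Cox6c and annotated as a processed pseudogene, so its reads may be shared with Cox6c. Cox8b was just short of the limit, 24.9% higher. In the lower direction the largest differences were those of Atp5mpl and Atp5c1, with log2 count ratios of -0.16 (-0.22 to -0.11) and -0.16 (-0.18 to -0.13).

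By complex, 12 of 16 complex IV members were higher in aged EPA, with a median log2 change of 0.04 (6 of 16 were lower once the trend with transcript length was subtracted). Of complex V 9 of 17 were higher, with a median of 0.01. In complex III 6 of 9 were higher, and in complex II 1 of 4. The summed level of complex IV was 8.06% higher in aged EPA, and 4.49% higher without Cox4i1, with 2963 CPM in aged EPA and 2835 CPM in aged control. On recovered counts divided by their library totals, 12 members rather than 19 were lower in aged EPA, since the deposited values were scaled with divisors that differ from gene to gene. The median over all compared genes moved up as well, from -0.03 to 0.01, and that of the members moved from 0.02 to 0.05.

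**Figure D4:**
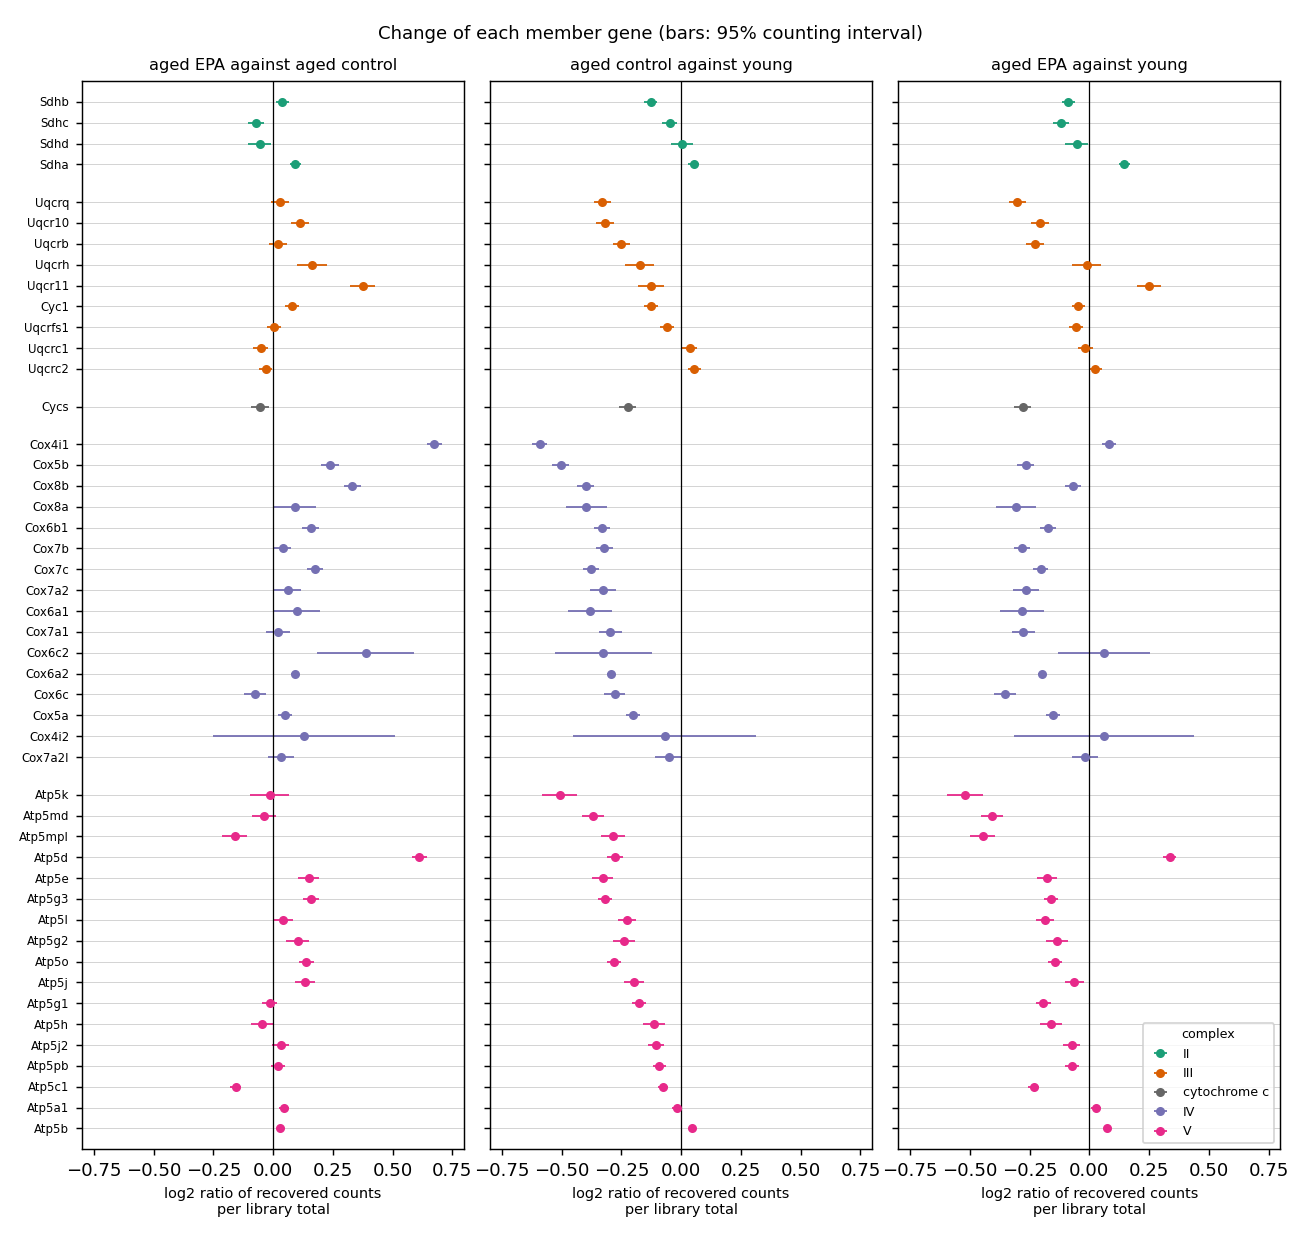
Log2 ratio of recovered counts, each divided by its library's total, for the 47 members in aged EPA against aged control, aged control against young and aged EPA against young, coloured by complex, where bars are 95% counting intervals. In the middle panel 39 intervals lie wholly below 0 and 4 wholly above, a count made for the members only and not for all compared genes. In the left panel Cox4i1 and Atp5d lie farthest to the right.

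Aged EPA against young gave a picture between these. The members had a median log2 change of -0.20, against -0.04 over all compared genes, and 40 of 47 were lower by any amount, against 56.7%. At least 20% lower were 7 of 47 members, against 11.7% of all compared genes, so their share of such differences was near the background. None was at least 25% higher on deposited CPM + 1, against 7.43%, though Atp5d passed that limit on recovered counts. The 7 were Atp5k, Atp5mpl, Atp5md, Cox6c, Cox7a2, Uqcrq and Cox8a, and the largest difference was that of Atp5k with a log2 count ratio of -0.52 (-0.60 to -0.45). Atp5d was the highest above young, with 0.34 (0.31 to 0.36). Every library enters 2 of the 3 comparisons, so the 3 sets of values are not independent.

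Transcript length went with these differences. The members are short, with a median principal transcript of 730 bases against 2806 over all compared genes, and complex IV transcripts had a median of 631.5 bases and complex II transcripts of 2065.5. Across the 47 members, Spearman's rho of length with the log2 change of aged control against young was 0.64, and across 12966 compared genes, which are not independent replicates, it was 0.29. Under 600 bases, the median log2 change was -0.31 for 16 members and -0.20 for 468 other genes, of which 82.5% were lower in aged control. From 600 to under 900 bases it was -0.26 for 12 members and -0.18 for 608 other genes. From 1500 to under 2500 bases it was -0.01 for 6 members and -0.04 for 2898 others. At 2500 bases and over it was -0.10 for 4 members, 3 of them lower, and 0.04 for 7387 others.

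With the trend over all genes subtracted, the members' median was -0.06 in aged control against young, with 33 of 47 lower and 1 at least 20% lower, Cox4i1 at -0.44. Complex IV then had a median of -0.14 with 13 of 16 lower, complex V -0.06 with 13 of 17, complex III 0.02 with 4 of 9 and complex II 0.01 with 2 of 4. The gap between core and small subunits narrowed. In complex III Uqcrq was then at -0.23, Uqcr10 at -0.11, Uqcrb at -0.07, Uqcrh at 0.02 and Uqcr11 at 0.08, beside Uqcrc1 at 0.07 and Uqcrc2 at 0.08. In complex V Atp5k was at -0.28, Atp5md at -0.14, Atp5mpl at -0.09 and Atp5l at -0.05, beside Atp5b at 0.08 and Atp5a1 at -0.02. In aged EPA against aged control the subtraction left Cox4i1 at 0.57 and Atp5d at 0.58 as the members at least 25% higher. The cause of the trend was not tested.

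**Figure D5:**
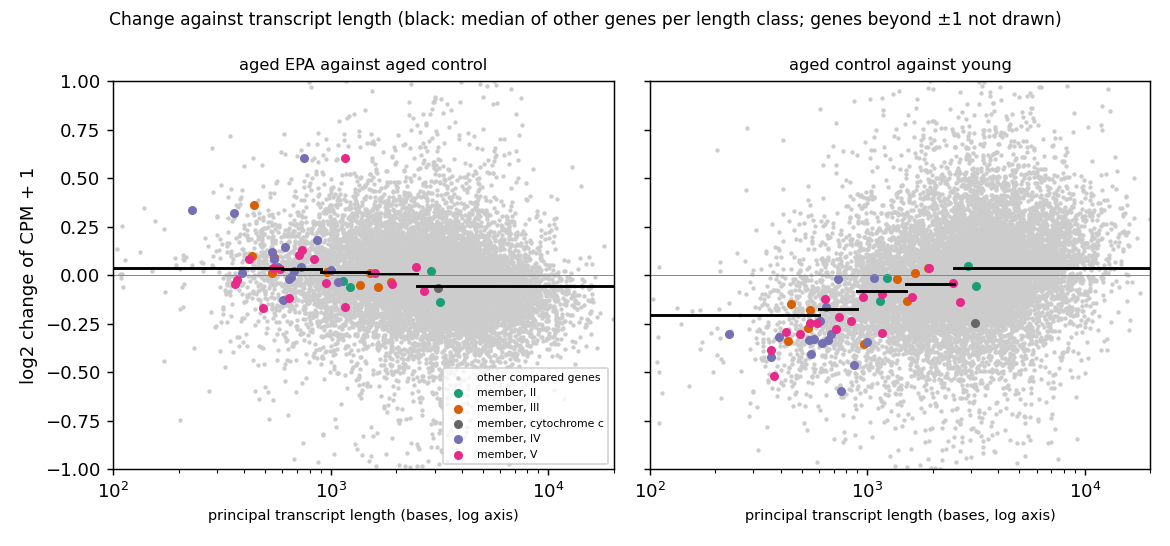
Log2 change of CPM + 1 against principal transcript length (log axis) in aged EPA against aged control and aged control against young, with members coloured by complex, other compared genes in grey and black lines at the median of the other genes in each length class. Genes beyond 1 log2 unit are not drawn. On the right the members lie low at short lengths, as the black median does, and Cox4i1 and Cox5b lie below it.

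Reads shared with copies could touch some members. Pseudogene transcripts at least 90% identical over at least 150 bases were found for 22 members, and for 8 of them the copies held at least 5% of the summed CPM in some library. For Atp5g2 the copies held 33.7% in aged EPA, 34.5% in aged control and 33.6% in young, and for Atp5l 22.6%, 24.1% and 25.2%. With copies added, the members' median in aged control against young was -0.24, with 43 of 47 lower. Single members moved either way. In aged control against young Cox7c went from -0.33 to -0.30, no longer 20% lower, and Atp5l from -0.25 to -0.27. In aged EPA against aged control Atp5g1 went from -0.08 to -0.01. No such copy was found for Cox4i1 or Atp5d. Each overlaps a gene on the opposite strand, Emc8 for Cox4i1 and Cbarp for Atp5d, and whether counting used the strand is not given in the sources used here. Emc8 had 10.8, 11.1 and 10.04 CPM in aged EPA, aged control and young, and Cbarp had 1.61, 2.02 and 1.53 CPM, so both were low beside their partners. Cox4i1 also overlaps the gene Gm20388 on its own strand, which was listed at 0 in every library. How reads in that overlap were assigned was not tested.

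The subunits of the same complexes made from mitochondrial DNA were lower in the aged libraries too. All 6 were lower in aged control than in young, none by 20%, with a median log2 change of -0.14. The cytochrome oxidase core gene mt-Co1 had 54182 CPM in aged EPA, 55572 CPM in aged control and 60025 CPM in young. mt-Cytb, cytochrome b of complex III, had 23890, 26669 and 29224 CPM, and mt-Atp6, the proton channel subunit of complex V, had 12299, 13469 and 14522 CPM. For these 3 genes aged EPA was the lowest library, and 5 of the 6 had less CPM in aged EPA than in aged control. Complex I subunits, for comparison, were lower in aged control than in young in 33 of 36 genes, 6 by at least 20%, with a median of -0.20. Of all compared genes 52.4% were lower in that comparison, and 10.4% by at least 20%.

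Assembly factors of complexes II to V, a list of 41 genes, differed less in common. They had a median log2 change of -0.11 in aged control against young, with 29 of 41 lower, against 52.4% of all compared genes. At least 20% lower were 3 of 41, or 7.32% against 10.4% of all compared genes, and none was at least 25% higher. Coa7, a complex IV assembly factor, had 2.72 CPM in aged EPA, 6.72 CPM in aged control and 16.9 CPM in young. Fmc1, an assembly factor of complex V, had 32.1, 28.8 and 37.2 CPM, and Higd1a, which binds complex IV, had 33.9, 29.0 and 36.6 CPM. In aged EPA against aged control 7 of 41 were at least 20% lower, or 17.1% against 7.38% of all compared genes, and 1 was at least 25% higher. Genes picked after their values were seen are Cox17, a copper chaperone, with 10.04 CPM in aged EPA, 20.7 CPM in aged control and 22.004 CPM in young, and Tmem70, needed for the c ring, with 30.9, 55.0 and 55.2 CPM. Atpaf1, a chaperone of the beta subunit, went the other way with 40.1, 19.8 and 19.4 CPM. In each of these 3 the aged EPA library alone stood apart.

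Lists of genes around the chain had medians closer to 0 than the members in aged control against young. Sp1 and Ppara of the regulator list differed more than any member in that comparison. Carriers and kinases of ATP export, 8 genes, had a median log2 change of -0.07 in aged control against young with 6 lower. Over all compared genes 52.4% were lower in that comparison. Coenzyme Q synthesis genes, 13 in all, had a median of -0.07 with 10 lower. In aged EPA against aged control 11 of these 13 were higher and 2 lower, where 55.8% of all compared genes were lower. Coq8a, an atypical kinase of that pathway also chosen after its values were seen, had 622 CPM in aged EPA, 311 CPM in aged control and 314 CPM in young. Regulators of mitochondrial genes, 16 in all, had a median of -0.05 in aged control against young. Of these 9 were lower and 7 higher, a share near that of all compared genes. Esrrg, a nuclear receptor of oxidative muscle, had 29.1, 34.2 and 45.8 CPM, and Ppara, a fatty acid receptor, had 7.00, 11.1 and 6.64 CPM. Sp1, a general activator, had 23.5 CPM in aged EPA, 1.72 CPM in aged control and 29.2 CPM in young, with aged control alone low.

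Markers of other cells and fibre types also differed between the libraries. Skeletal muscle markers were abundant, as the label of the tissue says. Acta1, skeletal actin, had 35589 CPM in aged EPA, 36148 CPM in aged control and 31001 CPM in young. Of the 6 skeletal muscle markers 3 were lower in aged control than in young and 3 were higher. The 6 slow fibre markers, of fibres rich in mitochondria, summed to 621 CPM in aged EPA, 755 CPM in aged control and 427 CPM in young. The 4 red cell markers summed to 404, 403 and 1082 CPM, the 3 endothelial markers to 186, 191 and 255 CPM and the 5 adipocyte markers to 114, 84.3 and 137 CPM. Most of the adipocyte sums was Cfd, with 85.3, 59.1 and 109.7 CPM. Adipoq had 18.4, 15.9 and 16.8 CPM, Plin1 9.73, 8.44 and 10.1 CPM, and Cidea 0.470, 0.815 and 0.347 CPM, highest in aged control. The brown fat gene Ucp1 and the heart gene Myl7 were listed at 0 in every library. Of the other heart markers, Myh6 had 3.36 CPM in aged EPA, 6.83 CPM in aged control and 3.57 CPM in young, highest in aged control. Nppa had 0.191 CPM in aged EPA and was listed at 0 in aged control and young. Transcripts of mitochondrial DNA made up 19.6% of all counts in aged EPA, 21.2% in aged control and 22.7% in young. The part of these shifts in the members' differences was not tested.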

How the data were processed

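The data are gene tables of 3 pooled RNA-seq libraries (aged EPA, aged control, young), with 1 library a group. The submitters' processing notes name HISAT2 2.1.0, StringTie 1.3.4d, R 3.5.0 and build GRCm38. The deposited unit is CPM, calculated by the authors. Every value above 0 became a whole count under 1 of 5 divisors that differ from gene to gene, which moved a member's log2 change by at most 0.078 against a single total per library. Levels and changes use the deposited CPM with a pseudocount of 1 CPM and a minimum mean of 1 CPM. Log2 count ratios use recovered counts divided by their library totals, with exact Clopper-Pearson 95% intervals that cover counting error only. A count of 0 allows up to 3 counts, about 0.052 CPM in aged control.

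No test was run, since no group has a second library. Lengths are medians of principal transcripts (GENCODE M21), trends were fitted by lowess with a fraction of 0.3 (statsmodels 0.14.6), and copies were searched with BLASTN 2.17.0 at 90% identity. Per-library values are given for members at least 25% apart, those at the ends of each complex, complex II, Cyc1, Cycs and isoform pairs. They are also given for some further members and for some genes of the other lists. Members and lists were chosen with earlier results of these data known. The lowess subtraction was checked on simulated data. Other pseudocounts, minimums, scalings, trend subtractions and a 1.5-fold limit were tried as alternatives.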

Additional observations from a re-analysis of the deposited data

How the results depend on the processing

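The median log2 change of the members in aged control against young (main value -0.25) stayed between -0.26 and -0.22 under 10 alternatives and was -0.0649 with the length trend subtracted. In aged EPA against aged control the median (main 0.02) lay between -0.004 and 0.05 under all 11 alternatives, so its sign is not settled. In aged EPA against young (main -0.20) it was -0.1502 with TMM scaling, -0.1537 with median-of-ratios scaling, -0.1517 on recovered counts over own totals, -0.0539 with the length trend and -0.1601 with the GC trend subtracted, and -0.1414 on recovered counts with TMM scaling, an alternative chosen after seeing the data. The members at least 20% below young in aged control (main 13) numbered 1 with the length trend subtracted, 8 on recovered counts with TMM scaling and 1 at a limit of 1.5-fold. The members at least 25% above aged control in aged EPA (main 4) numbered 2 with the length trend subtracted and 2 at a limit of 1.5-fold. The cause of the length trend was not tested. No paired analysis was possible because each group has 1 library. Depth limits little here, since a member's counting interval reached a median of 0.035 in log2 to either side in aged control against young.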
